A study of Homo sapiens with 12 samples.

Results

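The comparison described here is induction of a hairpin RNA against ZXDC in U937 cells that received vehicle only, and it takes 6 of the 12 arrays of the series. U937 is an established human line from a histiocytic lymphoma, with features of an immature monocyte. All cultures carried a TRIPZ cassette, a lentiviral Tet-On unit that makes a microRNA-like hairpin when doxycycline is present, and all grew under puromycin. The 3 control arrays, labelled vehicle without doxycycline, came from cultures given 0.1% DMSO alone. The 3 induced arrays came from cultures given the same vehicle and 0.5 µg/mL doxycycline daily for 4 days, with the vehicle added after the first 2 days and left for 3 days, as the labels state these times. The other 6 arrays came from cultures given 100 nM PMA, a phorbol ester under which this line takes on macrophage features, without and with doxycycline, and they enter here only through the shared estimate of the spread and the test of a difference between agents. The arrays were chosen by the agent and doxycycline named in the sample titles, and 1 probe set per gene, the one with the highest mean over the 12 arrays, gave 19775 genes of 54675 probe sets.

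The system sets limits on what the groups can separate. The cultures come from 1 transduced line with 1 hairpin design, and every culture with doxycycline also carried the hairpin, so an effect of the hairpin and an effect of the antibiotic cannot be told apart in these arrays. The labels call the arrays biological replicates 1 to 3 within each group. They do not say whether the cultures were grown on separate days, so the p-values measure the spread between these labelled replicates.

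ZXDC belongs to a small family of zinc finger proteins with ZXDA and ZXDB. ZXDC and ZXDA are known as partners of CIITA, the coactivator that turns on the genes of MHC class II. A short hairpin RNA is cut by the microRNA machinery into a small guide strand, which Argonaute proteins use to repress transcripts that match it. Doxycycline, the inducer, is a tetracycline antibiotic: it binds divalent metal ions and, at sufficient dose, slows protein synthesis on mitochondrial ribosomes, which resemble bacterial ones.

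Values are log2 signals as deposited, and a difference is the mean with doxycycline minus the mean without it. Differences are given with the standard error (SE) of limma, fitted to all genes at once. The median log2 signal over all probe sets lay between 5.16 and 5.21 on the 6 vehicle arrays. Over all probe sets the correlation was 0.991 to 0.996 between arrays of 1 group and 0.991 to 0.997 across groups, so the groups were no further apart over the whole array than replicates were. The gap between the 3′ and 5′ control probe sets of ACTB, a measure of RNA length, was 1.99 without and 2.40 with doxycycline in pair 1. It was 1.29 and 0.71 in pair 2, and 1.05 and 1.07 in pair 3. The arrays of pair 1 thus stood apart in the ACTB gap in both groups. The same gap for GAPDH did not set pair 1 apart. It was 0.17 without and 0.21 with doxycycline in pair 1, 0.25 and 0.12 in pair 2, and 0.19 and 0.16 in pair 3. The signal of ACTB itself differed by 0.06 (SE 0.20) and that of GAPDH by 0.05 (SE 0.10). The part of RNA length in the results below was not tested, and values without pair 1 are given for ZXDC, IL1A, CX3CR1 and IDI1.

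The myeloid markers fitted the label in part. ELANE and AZU1, which encode granule proteins of early myeloid cells, had log2 signals of 12.14 to 12.47 and 8.32 to 9.38 over the 6 arrays. LYZ, lysozyme, had 12.20 to 12.65. MPO, myeloperoxidase, lay at 4.07 to 4.47 and SPI1, the myeloid master regulator PU.1, at 5.12 to 5.49, both below the median gene at 6.12. CD4 lay at 6.94 to 7.33. None of the 12 T and NK cell markers measured lay above the median gene, against 3 of 9 B cell markers, 1 of 10 erythroid and megakaryocyte markers and 2 of 16 fibroblast, epithelial and endothelial markers. Signals of different probe sets are not on one scale, so no order between these genes is read from them.

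The targeted gene was lower with doxycycline in every pair, by a modest amount. ZXDC gave log2 signals of 8.01, 7.64 and 7.69 without doxycycline and 7.16, 7.25 and 7.44 with it, on probe set 225964_at. All 3 induced arrays lay below all 3 controls. The means were 7.78 ± 0.20 and 7.28 ± 0.14 (SD, n = 3 each), a difference of -0.49 (SE 0.16, 95% interval -0.83 to -0.16), which leaves 71.1% of the control signal. In bulk RNA a lower level in every cell and a loss in some of the cells cannot be told apart. Its unadjusted p was 0.0073 in limma and its Benjamini-Hochberg adjusted p over all genes was 1.00. An exact permutation of the 6 arrays gave a two-sided p of 0.10, the smallest that 3 against 3 can give. The differences within pairs 1 to 3 were -0.85, -0.38 and -0.25, and without pair 1 the mean difference was -0.31. Among all genes ZXDC had the 40th largest difference below 0 and the 51st smallest p, so the gene that the hairpin targets did not lead the list.

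ZXDC is covered by 6 probe sets, and all 6 were lower with doxycycline in all 3 pairs. Probe set 218639_s_at differed by -0.55 (SE 0.17) and 230209_at by -0.50 (SE 0.22), close to the first. The rest differed by -0.39 (230106_at, SE 0.21), -0.30 (235448_at, SE 0.10) and -0.26 (234991_at, SE 0.16). The groups did not overlap for 5 of the 6, the exception being 230106_at, with 5.72, 5.89 and 5.43 without and 5.12, 5.66 and 5.09 with doxycycline. These probe sets read different stretches of the transcripts of one gene in the same RNA, so they are not independent replicates of the change.

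**Figure D1:**
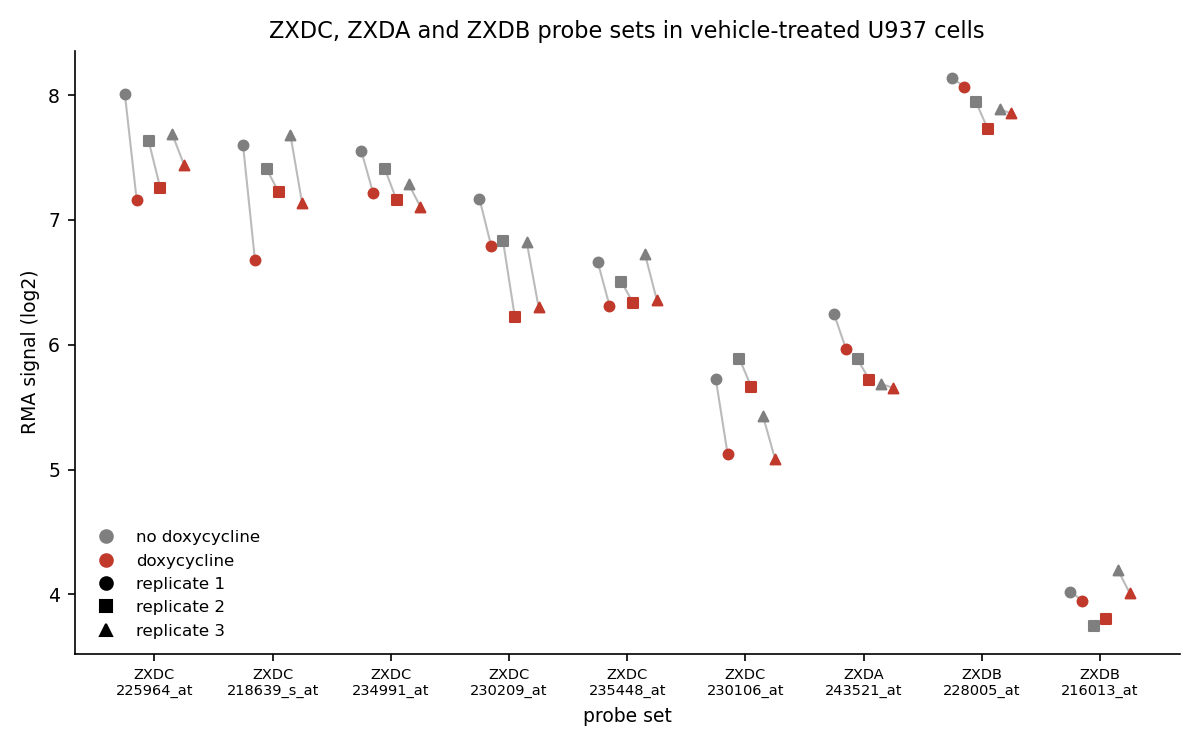
Log2 signal of each ZXDC, ZXDB and ZXDA probe set in the 3 vehicle arrays without and the 3 with doxycycline, with arrays of one replicate number joined. All 6 ZXDC probe sets lie lower with doxycycline in every pair. The ZXDA and main ZXDB probe sets also lie lower in every pair, with smaller mean differences of -0.16 and -0.11. The pairs of the dim ZXDB probe set lie on both sides of 0, with a mean difference of -0.07.

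The relatives of ZXDC and the genes tied to it by earlier work had arrays that overlapped between the groups. ZXDA, whose product can pair with ZXDC, gave 6.25, 5.88 and 5.69 without and 5.97, 5.72 and 5.65 with doxycycline, a difference of -0.16 (SE 0.16). ZXDB, encoded by an X-linked near-copy of ZXDA, differed by -0.11 (SE 0.20) on its main probe set and by -0.07 on its dim second one. Pairs 1 to 3 differed by -0.28, -0.17 and -0.03 for ZXDA and by -0.07, -0.22 and -0.04 for the main ZXDB probe set. Both were thus lower in all 3 pairs, as ZXDC was, beside 13.5% of all genes. CIITA gave 5.33, 5.24 and 5.04 without and 5.41, 5.38 and 5.23 with doxycycline, a difference of 0.14 (SE 0.11), at a level below the median gene. Its other probe sets gave -0.12 and 0.02, and the mean of its probe sets differed by 0.012.

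CCL2, the monocyte chemoattractant and a gene studied with ZXDC in PMA-treated cells, varied more with the replicate number than with doxycycline in vehicle. It gave 5.72, 7.25 and 7.38 without and 5.28, 7.16 and 7.58 with doxycycline, so both arrays numbered 1 lay more than 1 log2 unit below all others. The difference was -0.11 (SE 0.64, 95% interval -1.50 to 1.27), an interval that holds changes in either direction. BCL6, a transcriptional repressor, differed by 0.21 (SE 0.29), with 9.08, 8.49 and 8.61 without and 9.18, 8.84 and 8.79 with doxycycline.

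Over all genes, no change passed the threshold. Of 19775 genes 0 (0%) had an adjusted p under 0.05 in limma, and the smallest adjusted p was 1.00. An unadjusted p under 0.05 was reached by 510 genes (2.58%), of which 312 (1.58%) were higher and 198 (1%) lower with doxycycline. With the replicate pair as a block there were also 0 adjusted calls, with 1090 genes (5.51%) at an unadjusted p under 0.05 and a smallest adjusted p of 0.36. Unadjusted p-values and counts by them below come from the fit without this block, unless the block is named. The balance of directions depended on scaling: after a cyclic loess between the arrays, 201 of 480 such genes (41.9%) were higher, against 61.2% of the 510, while the median difference over all genes moved only from 0.016 to 0.0028.

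The differences were small and repeated weakly from pair to pair. They ran from -0.90 to 0.68 over all genes, with 13 genes at 0.5 or more, 35 at -0.5 or less and 0 beyond 1 in either direction. The lowest value belonged to GAPT, which encodes a GRB2-binding adaptor of blood cells and is named because it was the extreme. GAPT gave 6.60, 7.89 and 7.75 without and 5.57, 6.87 and 7.09 with doxycycline. Its groups overlapped, yet all 3 pairs were lower, by -1.04, -1.01 and -0.66 in pairs 1 to 3. The unadjusted p of GAPT in limma was 0.047 without and 0.0002 with the pair block, where its adjusted p was 0.70. Its difference ran from -1.31 to -0.43 when arrays or pairs were left out. Across the 19775 genes the differences of pairs 1 and 2 correlated at 0.12, those of 1 and 3 at 0.083 and those of 2 and 3 at 0.10, as a description of arrays whose genes are not independent. All 3 induced arrays lay above all 3 controls for 1005 genes (5.08%) and below them for 687 (3.47%). All 3 pairs were higher for 3297 genes (16.7%) and lower for 2675 (13.5%).

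The intervals show what size of change the arrays leave room for. The 95% interval of the difference lay within 1 log2 unit of 0 for 19632 genes (99.3%), and within 0.5 for 15447 (78.1%). The median SE was 0.14. For most genes a doubling or more was therefore outside the interval, gene by gene and without adjustment.

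**Figure D2:**
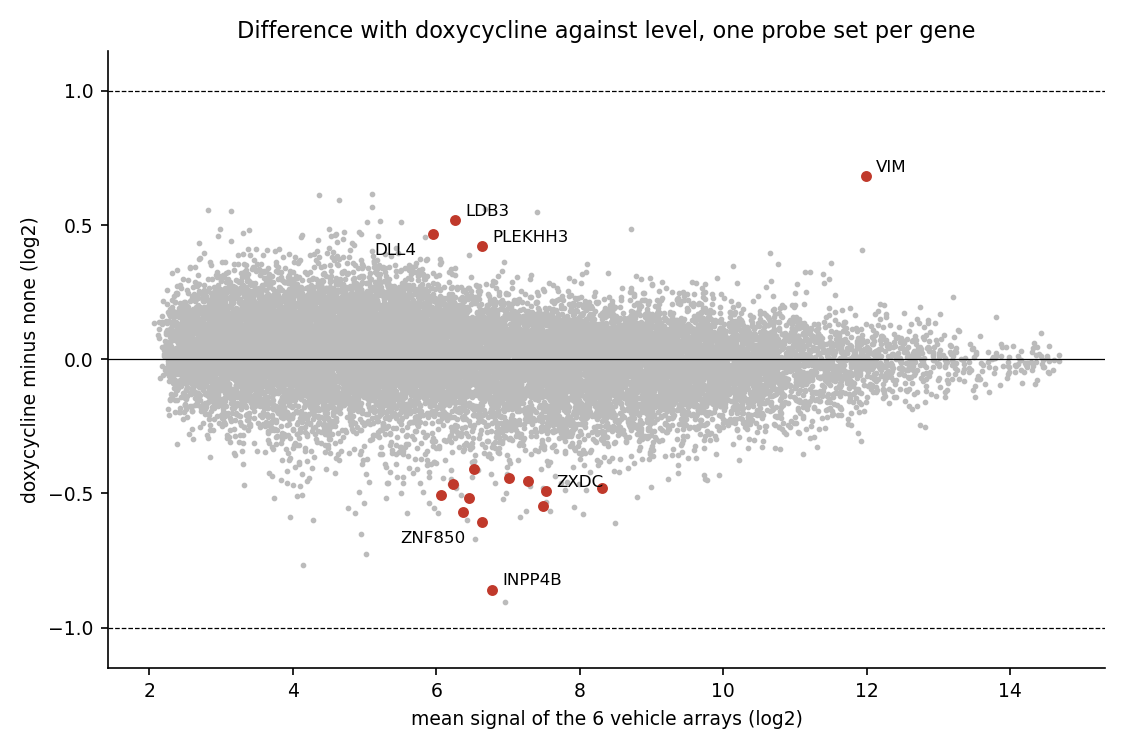
Difference with doxycycline (log2, vertical axis) against the mean log2 signal of the 6 vehicle arrays (horizontal axis), 1 grey point per gene for 19775 genes, with dashed lines at 1 and -1. Red points are the 16 genes named by rule, and no gene lies beyond either dashed line.

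None of the genes that follow passed the adjusted test: in limma each had an adjusted p of 1.00 without and between 0.50 and 0.88 with the pair block. They are the genes with an unadjusted p under 0.01, groups that did not overlap and a mean above the median gene in at least 1 vehicle group. There were 18 such genes, 4 higher and 14 lower with doxycycline, and the 4 and the first 12 by size are described, with ZXDC, above, among the 12.

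VIM, vimentin, the intermediate filament protein of mesenchymal cells and leukocytes, had the largest positive difference and the smallest p of all genes. It gave 11.85, 11.49 and 11.59 without and 12.35, 12.44 and 12.19 with doxycycline. All induced arrays stood above all controls. The difference was 0.68 (SE 0.13, 95% interval 0.41 to 0.96, unadjusted p 0.000115 in limma), or 1.61-fold. Its second probe set, of dim signal near 3.4, differed by -0.11 (SE 0.29), so the averaged value of both was 0.29.

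LDB3, a PDZ and LIM domain protein of the muscle Z-disc, differed by 0.52 (SE 0.13), with 5.80, 6.07 and 6.13 without and 6.50, 6.43 and 6.62 with doxycycline. Its other probe sets, 4 in number, differed by only -0.02 to 0.10. DLL4, a Notch ligand best known from endothelium, differed by 0.47 (SE 0.12), with 5.83, 5.74 and 5.58 without and 6.21, 6.29 and 6.05 with doxycycline. PLEKHH3, a protein with pleckstrin homology and FERM domains, gave 6.62, 6.43 and 6.24 without and 7.05, 6.84 and 6.66 with doxycycline. Its difference was 0.42 (SE 0.13), nearly equal in the pairs at 0.43, 0.41 and 0.42, and its second probe set differed by 0.26 with groups that did not overlap either. PLEKHH3 was thus the one of the 4 higher genes on which more than 1 probe set separated the groups, although DLL4 has only 1 probe set.

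Among the 12 lower genes INPP4B had the largest difference. It encodes a phosphatase that removes the 4-phosphate from phosphatidylinositol 3,4-bisphosphate and so acts against PI 3-kinase signalling. INPP4B gave 7.09, 7.46 and 7.06 without and 5.72, 6.46 and 6.86 with doxycycline. The groups did not overlap, yet the pairs ran from -1.37 through -1.0 to -0.20, so pair 3 showed little of it. The difference was -0.86 (SE 0.24, 55.2% of the control signal), and -0.54 to -1.19 when single arrays or pairs were left out. A second probe set gave -0.48 (SE 0.18), also without overlap, and the other two, both near a signal of 3, gave -0.08 and -0.05.

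ZNF850, which encodes a zinc finger protein, gave 6.65, 7.17 and 7.0 without and 6.46, 6.10 and 6.44 with doxycycline, a difference of -0.61 (SE 0.15). BBS10, a chaperonin-like protein needed to assemble the ciliary BBSome, differed by -0.57 (SE 0.17), with 6.70, 6.62 and 6.66 against 6.31, 5.72 and 6.24. CEP97, a centrosomal protein that holds back cilium formation, differed by -0.55 (SE 0.17), with 7.69, 7.93 and 7.68 against 7.34, 6.98 and 7.34. In ZNF850, BBS10 and CEP97 the second induced array was the lowest of all 6. Without pair 2 the differences of ZNF850 and CEP97 were -0.38 and -0.34. The CEP97 probe set is of a kind, marked by its suffix, that can share sequence with other transcripts, and the other CEP97 probe sets gave -0.26 and -0.22 with overlapping groups. BBS10 and CEP97 both act at the centriole and cilium, which is background to their names and was not tested as a group.

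NDFIP2, an adaptor that recruits ubiquitin ligases of the NEDD4 family, differed by -0.52 (SE 0.12), with 6.53, 6.79 and 6.85 against 6.21, 6.25 and 6.14, while its dimmer probe sets gave -0.15 to -0.12. MIPEPP3, a pseudogene related to the mitochondrial peptidase gene MIPEP, differed by -0.51 (SE 0.16), with 6.33, 6.30 and 6.32 against 5.70, 5.86 and 5.87, and its probe set is of the same kind as that of CEP97. The other MIPEPP3 probe sets, of the kind without that suffix, gave -0.007 and 0.22, so the difference rests on 1 probe set. AIRIM, a factor in the maturation of the large ribosomal subunit, differed by -0.48 (SE 0.14), with 8.36, 8.60 and 8.68 against 7.93, 7.95 and 8.32. The smallest gap between groups was in AIRIM, where the third induced array lay just below the first control.

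DZIP3, PHOSPHO2, PATZ1 and TDRD9 differed by -0.47 to -0.41. DZIP3, a ubiquitin ligase that binds RNA, gave 6.45, 6.45 and 6.50 without and 6.20, 5.78 and 6.02 with doxycycline, and the mean of its probe sets differed by -0.26. PHOSPHO2, a phosphatase, gave 7.45, 7.72 and 7.33 against 6.90, 7.03 and 7.21, and TDRD9, a helicase of the germline piRNA pathway, gave 6.79, 6.59 and 6.80 against 6.38, 6.27 and 6.30. PATZ1, a zinc finger repressor with an AT hook, rested on 1 probe set: that one differed by -0.44 (SE 0.14), and its other probe sets, 5 in number, by -0.03 to 0.12. ZNF850, BBS10, AIRIM, PHOSPHO2 and TDRD9 have only 1 probe set each, so no such comparison was available for them.

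**Figure D3:**
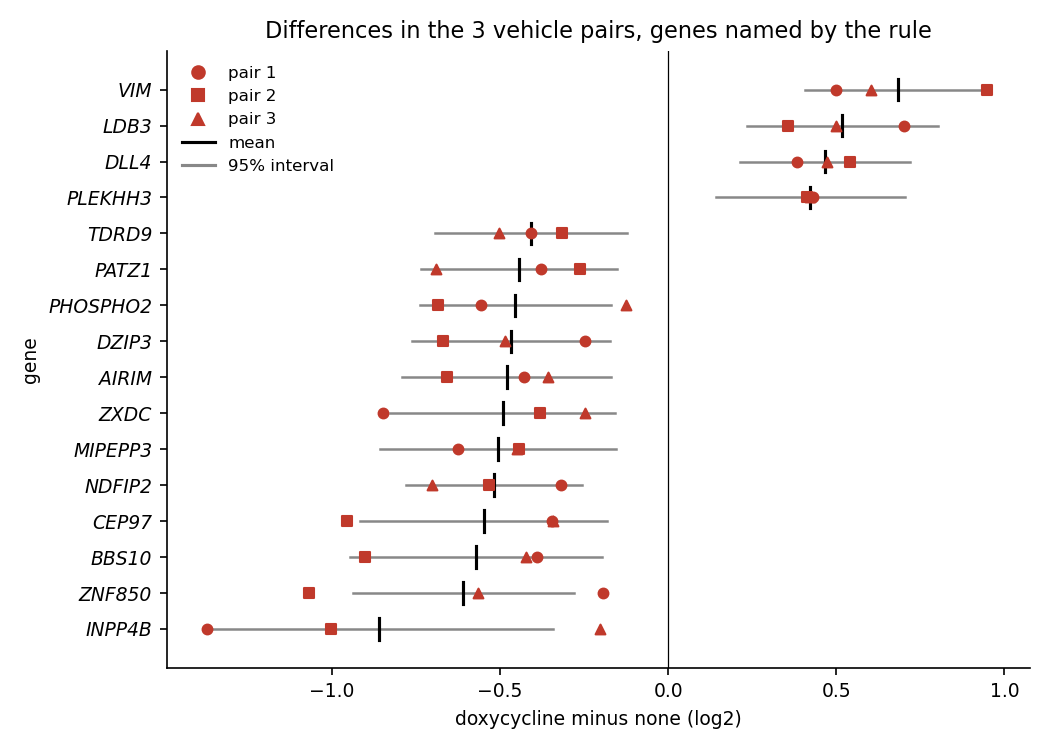
Difference with doxycycline within each replicate pair (log2) for the 4 higher and 12 lower genes named by rule, with the mean over pairs and its 95% interval from limma. Every pair lies on the side of its mean for all 16, since the rule took groups that do not overlap, and the spread between pairs is widest for INPP4B, from -1.37 to -0.20.

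Metallothioneins are small cysteine-rich proteins that bind zinc and copper, and their genes respond to metal ions through the factor MTF1. Their abundant members lay higher with doxycycline, each by less than 0.5. They were picked out of the list of metallothioneins and zinc transporters after their values were seen. Of the 18 members of the list that were measured, 0 passed the adjusted test, 4 were higher and 0 lower at an unadjusted p under 0.05, beside 1.58% and 1% of all genes, and the list's median difference was 0.016, the same as that over all genes.

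The upstream sequences of the MT genes that had an entry in the RefSeq promoter table (GRCh38.p14) are shown because metal response elements are known from metallothionein promoters. All lie on the plus strand of chromosome 16, MT2A at chr16:56608334-56608583, MT1H at chr16:56669564-56669813 and MT1X at chr16:56682220-56682469, and each run is the 250 bases before the gene's start, 5′ to 3′. Capitals mark matches to TGCACNC or TGCGCNC, the core letters of the element, on either strand, and no matches overlapped.
MT2A: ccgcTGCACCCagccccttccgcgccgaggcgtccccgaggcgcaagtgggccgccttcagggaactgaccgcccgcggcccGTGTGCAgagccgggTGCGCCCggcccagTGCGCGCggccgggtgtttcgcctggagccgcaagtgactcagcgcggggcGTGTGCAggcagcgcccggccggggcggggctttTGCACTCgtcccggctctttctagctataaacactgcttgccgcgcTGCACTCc
MT1H: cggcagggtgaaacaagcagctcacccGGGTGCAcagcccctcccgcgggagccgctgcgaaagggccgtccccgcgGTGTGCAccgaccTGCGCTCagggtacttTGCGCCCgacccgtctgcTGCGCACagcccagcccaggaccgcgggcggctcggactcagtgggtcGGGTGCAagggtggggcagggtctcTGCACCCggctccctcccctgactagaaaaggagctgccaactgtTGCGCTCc
MT1X: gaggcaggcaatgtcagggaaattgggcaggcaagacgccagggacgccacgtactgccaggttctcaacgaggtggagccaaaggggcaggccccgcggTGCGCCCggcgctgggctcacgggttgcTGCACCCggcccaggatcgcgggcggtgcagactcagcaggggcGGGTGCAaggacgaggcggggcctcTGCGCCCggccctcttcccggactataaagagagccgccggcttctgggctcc
There were 7 matches upstream of MT2A, 8 upstream of MT1H and 4 upstream of MT1X. Of 35116 promoters of the same length in the table, 24.8% held at least 1 match and 0.37% held 4 or more. A match describes letters and not binding.

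MT2A, the most widely expressed family member, gave 11.57, 11.71 and 11.93 without and 11.87, 12.33 and 12.23 with doxycycline. The groups overlapped by 1 array, although all 3 pairs were higher. The difference was 0.41 (SE 0.13, unadjusted p 0.0094 and adjusted p 1.00 in limma). MT1X gave 11.08, 11.41 and 11.47 against 11.42, 11.76 and 11.85, a difference of 0.36 (SE 0.14) that was almost equal in the pairs at 0.35, 0.35 and 0.38. It also overlapped by 1 array, while its second probe set gave 0.40 (SE 0.15).

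MT1G gave 11.39, 11.17 and 11.23 against 11.49, 11.56 and 11.58, and MT1H 10.80, 10.92 and 10.95 against 11.04, 11.29 and 11.18. Both differed by 0.28 (SE 0.11 and 0.12) without overlap between groups. MT1E differed by 0.20 (SE 0.17) and MT1F by 0.17 (SE 0.14), with overlap, and MT1M, at a signal near 3, by -0.05 (SE 0.15). The main probe sets of MT2A, MT1X, MT1G, MT1H, MT1E and MT1F are all of a kind that can cross-hybridise with near-identical members, so the 6 values are not 6 separate observations and their split between genes is uncertain.

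Of all 18 members 9 lay above 0 and 9 below. SLC39A14, a zinc and manganese importer, had the smallest p among the members below 0, with 10.11, 10.30 and 10.31 without and 9.96, 10.06 and 10.14 with doxycycline. Its difference was -0.18 (SE 0.13). In PMA-treated cells the same comparison gave 0.58 (SE 0.13) for MT2A, 0.76 for MT1X and 0.88 for MT1E. The test of the difference between agents gave an adjusted p of 1.00 for MT2A in limma (difference of differences -0.18, SE 0.19), so the vehicle value was not shown to differ from that with PMA.

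**Figure D4:**
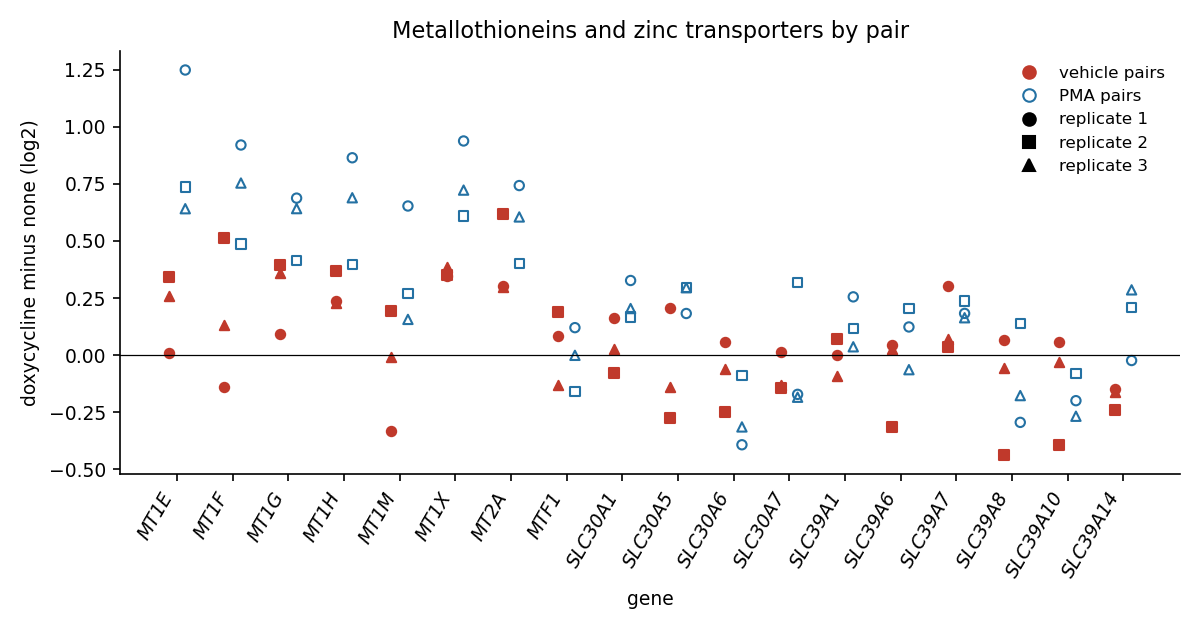
Difference with doxycycline (log2) within each replicate pair for the 18 measured metallothionein, zinc transporter and MTF1 genes, in vehicle (filled red) and in PMA-treated cells (open blue), with the marker shape giving the replicate number. MT2A, MT1X, MT1G and MT1H lie above 0 in every vehicle pair, with means of 0.28 to 0.41, while the vehicle pairs of MT1M lie on both sides of 0.

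Lists of mitochondrial genes had medians near 0. Nuclear genes of the mitochondrial ribosome and translation had a median difference of -0.005 over 27 measured members. Of these, 0 of 27 passed an unadjusted p of 0.05, beside only 2.58% of all genes. The median was 0.03 over 27 nuclear subunits of the respiratory chain and 0.004 over 12 mitochondrial proteases and chaperones, again with 0 past that p. MRPL19, of the large mitochondrial ribosomal subunit, had the smallest p among the negative members, with 9.38, 9.95 and 9.96 against 9.38, 9.24 and 9.69. Its difference was -0.32 (SE 0.17), with an unadjusted p of 0.034 and an adjusted p of 0.88 in limma with the pair block. Dimmer MRPL19 probe sets gave -0.46 (SE 0.13), without overlap between groups, and -0.19, with overlap. MRPS22, of the small subunit, differed by 0.05 (SE 0.12). UQCRB, a subunit of complex III, differed by -0.10 (SE 0.10). The 15 genes of the mitochondrial genome itself had no single-gene probe set here, so the transcripts translated by the ribosomes that doxycycline can slow were not measured.

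Stress programmes that follow mitochondrial or reticulum damage did not move past the test. The integrated stress response, which raises amino acid synthesis through ATF4, had a median of 0.06 over 31 genes. Of these, 0 of 31 passed an unadjusted p of 0.05, beside only 2.58% of all genes. PSPH, which makes serine, gave 9.46, 9.57 and 9.66 without and 9.20, 9.29 and 9.46 with doxycycline, a difference of -0.24 (SE 0.13). The unfolded protein response had a median of 0.07 over 16 genes, and HYOU1, a reticulum chaperone, differed by 0.20 (SE 0.11). Heat shock genes had a median of 0.03 over 9, and aminoacyl-tRNA synthetases -0.02 over 11.

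Glycolysis and hypoxia genes had a median of 0.03 over 27 members. ENO2, an enolase isoform, gave 5.0, 5.06 and 4.79 without and 5.11, 5.28 and 5.23 with doxycycline, a difference of 0.26 (SE 0.12) without overlap between groups. PDK1, which closes pyruvate dehydrogenase, gave 12.81, 12.90 and 12.88 against 12.58, 12.54 and 12.73, a difference of -0.25 (SE 0.12), also without overlap. ENO2 and PDK1 thus pointed in opposite directions within one list. In the list of NRF2, heme and iron genes (median 0.02 over 18), OSGIN1, an oxidative stress response gene, differed by 0.30 (SE 0.14).

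Genes that handle hairpin RNA, and those that answer double-stranded RNA, gave no change past the test. The RNA interference machinery had a median of -0.04 over 12 genes, from -0.17 to 0.11. Of these, 0 passed an unadjusted p of 0.05, beside only 2.58% of all genes. AGO1, an Argonaute, gave 7.66, 7.55 and 7.66 without and 7.87, 7.68 and 7.65 with doxycycline. A dimmer AGO1 probe set gave 0.30 (SE 0.11) without overlap, and the others gave -0.07 and 0.03. TNRC6B, a partner of Argonaute in silencing, differed by -0.16 (SE 0.12). The type I interferon list had a median of 0.00037 over 27 genes, 14 higher and 13 lower. In this list 3 of 27 genes had all induced arrays below all controls and 0 had them above, beside 3.47% and 5.08% of all genes. MX1, an antiviral GTPase, differed by 0.17 (SE 0.20). RSAD2, viperin, differed by -0.33 (SE 0.31) without overlap, at dim signals of 4.25 to 4.91, and its second probe set gave -0.43 with overlap. With the pair block in limma the unadjusted p of RSAD2 was 0.034 and its adjusted p 0.88.

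Genes of proliferation were near 0 as lists. Cell cycle and DNA replication had a median of -0.05 over 30 genes, 12 higher and 18 lower, and CCNE1, cyclin E1, gave 8.0, 8.70 and 8.71 without and 7.80, 8.40 and 8.35 with doxycycline. Its difference was -0.29 (SE 0.19), smaller than the gap between the first control and the other two. The array numbered 1 was the lowest in both groups, and pairs 1 to 3 differed by -0.20, -0.29 and -0.36. With the pair block in limma the unadjusted p of CCNE1 was 0.010 and its adjusted p 0.88, while its dim second probe set gave -0.03. Apoptosis regulators had a median of -0.03 over 19, with 13 of 19 lower, among them XIAP, a caspase inhibitor, at -0.20 (SE 0.13).

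CDKN1A encodes the kinase inhibitor p21 and belongs to the p53 targets, whose median was 0.01 over 17. It gave 6.32, 6.47 and 6.42 without and 6.60, 7.33 and 6.97 with doxycycline. The groups did not overlap, with pair differences of 0.28, 0.85 and 0.54. The mean difference was 0.56 (SE 0.25, unadjusted p 0.044, adjusted p 1.00 in limma). CDKN1A was the only one of the 17 past an unadjusted p of 0.05, beside 1.58% of all genes higher and 1% lower. With the pair block in limma its unadjusted p was 0.00069 and its adjusted p 0.79. RRM2B, another p53 target and a subunit of ribonucleotide reductase, differed by -0.29 (SE 0.18).

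Lists of myeloid identity had medians near that of all genes. None of their members passed an unadjusted p of 0.05 in limma without the pair block, beside only 2.58% of all genes. Myeloid transcription factors had a median of -0.003 over 17, where MAF, a factor of macrophages, differed by 0.32 (SE 0.15) at a signal of 3.61 to 4.18. Primary granule and progenitor genes had a median of 0.04 over 15. Monocyte and macrophage markers had a median of 0.07 over 21. CD163, a haemoglobin scavenger receptor, gave 4.08, 4.30 and 3.80 without and 5.01, 4.60 and 4.41 with doxycycline, a difference of 0.61 (SE 0.39), while its other probe sets gave 0.03 and 0.12. CD36, a lipid scavenger receptor, gave 5.93, 6.98 and 6.38 against 5.07, 6.36 and 6.46, with groups that overlapped. Its difference was -0.46 (SE 0.51), with -0.86, -0.61 and 0.08 in pairs 1 to 3, and its other probe sets gave -0.12 to 0.17. In limma with the pair block the unadjusted p was 0.047 for MAF, 0.0024 for CD163 and 0.039 for CD36. Their adjusted p there was 0.79 to 0.88, and 5.51% of all genes had an unadjusted p under 0.05.

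Among 30 chemokines and cytokines, 3 were higher and 0 lower at an unadjusted p under 0.05, beside 1.58% and 1% of all genes, and the median was -0.01. CSF1, the macrophage growth factor, gave 5.47, 5.49 and 5.89 without and 6.02, 6.11 and 6.08 with doxycycline, a difference of 0.45 (SE 0.16), although its other probe sets, 3 in number, gave -0.09 to 0.05. CXCL3, a neutrophil chemoattractant, differed by 0.35 (SE 0.12) and IL1A, interleukin 1 alpha, by 0.38 (SE 0.15), both without overlap at dim signals of 3.52 to 4.77. Without pair 1 the IL1A difference was 0.18, and its second probe set gave -0.11, with groups apart in the opposite direction.

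Of 13 chemokine receptors measured, 3 were lower and 0 higher at an unadjusted p under 0.05, beside 1% and 1.58% of all genes, with a median of 0.04. CCR2, the receptor of CCL2 on monocytes, gave 5.11, 5.58 and 5.17 without and 4.72, 4.87 and 4.90 with doxycycline, without overlap. Its difference was -0.46 (SE 0.13, unadjusted p 0.0036 and adjusted p 1.00 in limma), and its dim second probe set gave 0.20. C5AR1, the receptor of complement C5a, differed by -0.57 (SE 0.22), with 5.54, 5.11 and 4.80 against 4.99, 4.38 and 4.37, and CX3CR1, the fractalkine receptor, by -0.38 (SE 0.17), with 6.91, 6.46 and 6.77 against 6.07, 6.35 and 6.57. Both of these overlapped. C5AR1 was lower in all 3 pairs, by -0.56, -0.72 and -0.43, with an unadjusted p of 0.00081 and an adjusted p of 0.79 in limma with the pair block. Pair 1 of CX3CR1 differed by -0.83 and the others by -0.10 and -0.20, so that without pair 1 its difference was -0.15, and its dim second probe set gave -0.05. C5AR1, CX3CR1, CSF1 and IL1A are named because of their values.

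Antigen presentation, the process to which ZXDC is tied through CIITA, gave no change past the test. MHC class II genes and their regulators had a median of 0.02 over 19, 10 higher and 9 lower. Of these, 0 passed an unadjusted p of 0.05, beside only 2.58% of all genes. RFXAP, a subunit of the RFX complex on MHC class II promoters, gave 8.25, 8.34 and 8.53 without and 7.94, 7.93 and 8.33 with doxycycline, a difference of -0.31 (SE 0.17). MHC class I genes had a median of 0.09 over 17, and the medians by pair were -0.05, 0.26 and -0.002, so that pair 2 alone lay above 0. Genes responsive to NF-kB had a median of -0.05 over 15, with PTX3, a soluble pattern receptor, at -0.44 (SE 0.24).

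Lists of metabolism and degradation had the largest medians above 0. All 17 measured genes of sterol and fatty acid synthesis lay above 0, with a median of 0.13 and a range of 0.01 to 0.25. None passed an unadjusted p of 0.05, beside only 2.58% of all genes. The medians by pair were 0.29, 0.10 and -0.01, so pair 3 did not share it. IDI1, which makes the isoprene unit, gave 11.09, 11.67 and 11.57 without and 11.62, 11.77 and 11.66 with doxycycline, a difference of 0.24 (SE 0.15) with 0.53 in pair 1 and 0.10 and 0.08 in the others. Without pair 1 it was 0.093, and its probe set without the suffix for shared sequence gave -0.13. HMGCS1, the first committed step, gave 9.58, 10.68 and 10.73 against 10.20, 10.52 and 10.69, again with the low first control, whereas MVK, mevalonate kinase, gave 8.14, 8.37 and 8.10 against 8.27, 8.49 and 8.24, higher by about 0.13 in each pair. HMGCS1 and MVK were chosen after their values were seen. Leaving out arrays or pairs moved the list's median between -0.04 and 0.20. These 17 genes are controlled together by SREBP factors and are not independent.

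Lysosomal genes had a median of 0.12 over 19, 8 of them higher and 0 lower in all 3 pairs, beside 16.7% and 13.5% of all genes. The medians by pair were -0.02, 0.19 and 0.06, so pair 1 did not share the sign, and leaving out arrays or pairs moved the median between 0.02 and 0.16. CTSL, the protease cathepsin L, gave 4.31, 4.59 and 4.18 without and 4.68, 4.90 and 4.89 with doxycycline, a difference of 0.46 (SE 0.12) without overlap, at a dim signal. Genes of proteases, adhesion and matrix had a median of 0.13 over 24. MMP19, a matrix metalloprotease, gave 6.27, 6.11 and 6.26 against 6.43, 6.51 and 6.51, a difference of 0.27 (SE 0.10), and its dim second probe set gave -0.11. In the list of LXR and lipid handling (median 0.03 over 14), PPARG, a lipid-sensing nuclear receptor of macrophages, differed by 0.25 (SE 0.14) without overlap between groups.

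Apart from the 4 genes of the ZXD family and partners, which hold ZXDC itself and had a median of -0.13, the lowest medians belonged to histones, at -0.07 over 11 genes with 10 of 11 below 0, and ribosome biogenesis, at -0.07 over 13. Neither had a member past an unadjusted p of 0.05 in limma without the pair block, beside only 2.58% of all genes. H4C8, a replication-dependent H4 histone, differed by -0.30 (SE 0.17), with 4.26, 4.63 and 4.54 against 3.98, 4.24 and 4.31. With the pair block in limma its unadjusted p was 0.013 and its adjusted p 0.88. The pair medians of the histones were 0.03, -0.15 and -0.16, so pair 1 did not share the sign. Genes of the cytosolic ribosome had a median of -0.01 over 15. Medians of the lists not yet described were 0.04 over 18 Notch and HES genes, -0.03 over 11 cyclin-dependent kinase inhibitors and D cyclins, 0.01 over 20 immediate early genes, -0.06 over 13 genes repressed by BCL6 and 0.03 over 9 reference genes.

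Markers of other cell types were mostly dim and gave 2 members at an unadjusted p under 0.05, beside 2.58% of all genes. ALAS2, the erythroid enzyme of heme synthesis, differed by 0.30 (SE 0.14), and VWF, von Willebrand factor of endothelium, by 0.48 (SE 0.17), with 4.57, 4.39 and 5.11 against 5.09, 5.30 and 5.11. Medians were 0.02 for T and NK cells, -0.06 for B cells, 0.03 for erythroid cells and megakaryocytes and 0.01 for fibroblast, epithelial and endothelial cells. Over all 41 lists, of 757 distinct genes 665 were measured, 0 passed the adjusted test, and 13 were higher and 4 lower at an unadjusted p under 0.05, beside 1.58% and 1% of all genes.

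**Figure D5:**
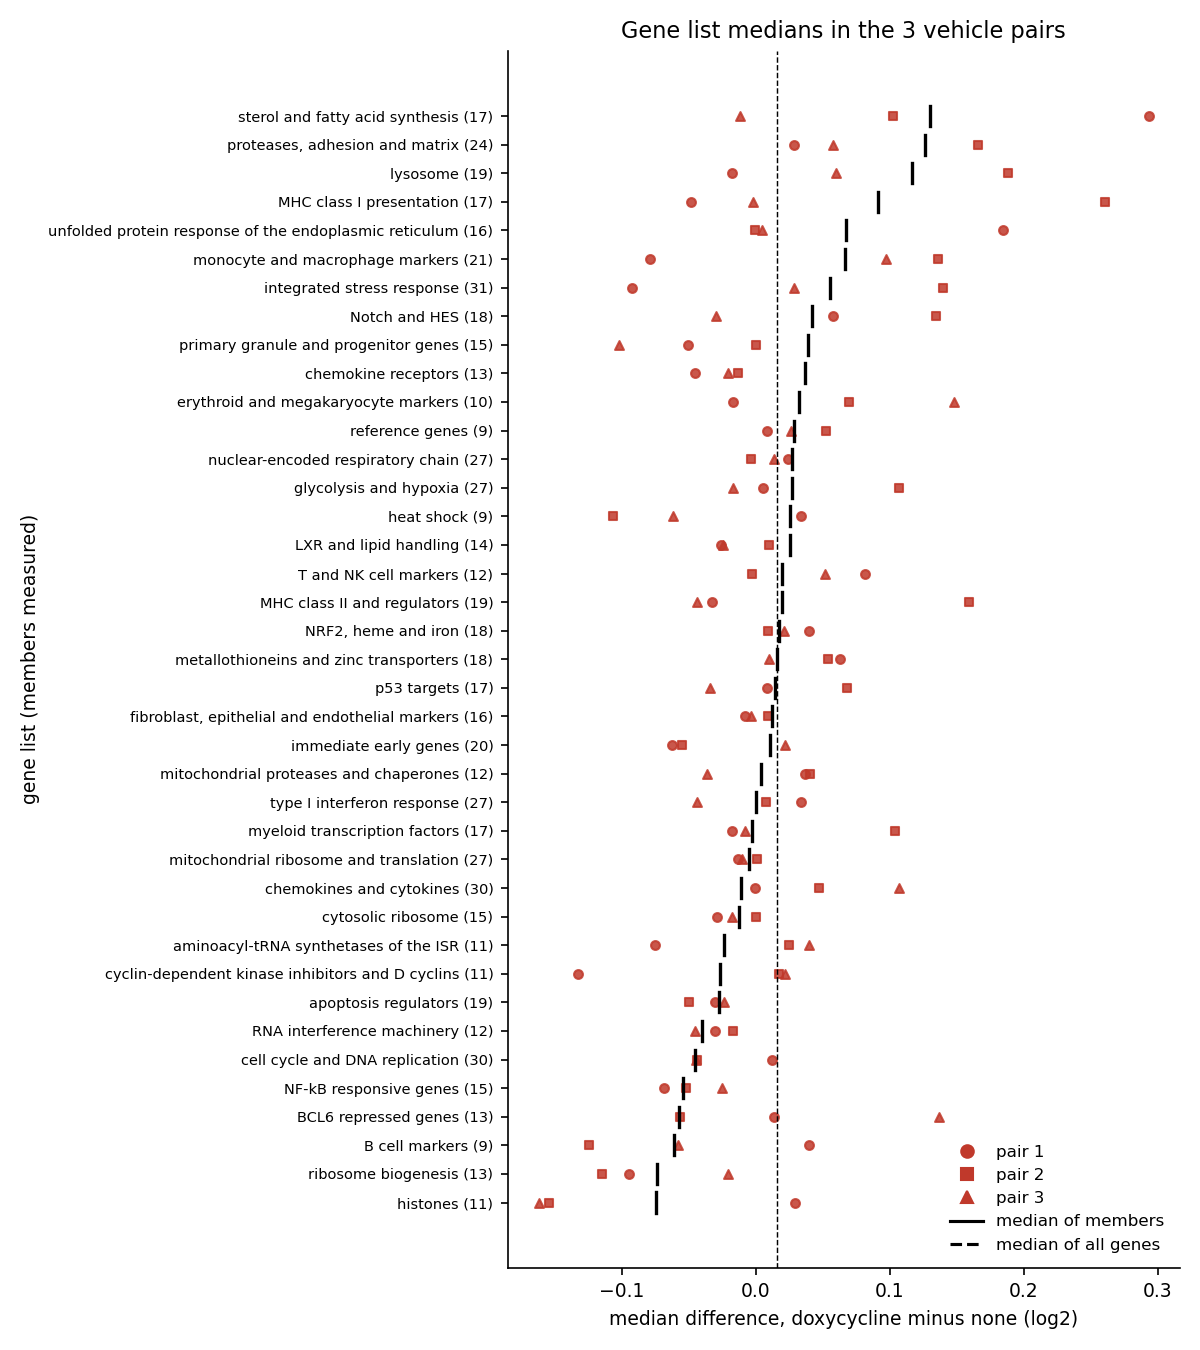
Median difference with doxycycline (log2) over the measured members of 39 gene lists, with black bars for the median of the members' means, red markers for the median within each replicate pair and a dashed line for all genes. The sterol list is highest at 0.13 yet ranges from 0.29 in pair 1 to -0.01 in pair 3.

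The same doxycycline comparison in PMA-treated cells was used only to test whether a vehicle value differed between agents. ZXDC differed by -0.49 in vehicle and -0.50 with PMA, and the difference between these was 0.01 (SE 0.22). The interaction had 0 of 19775 genes (0%) with an adjusted p under 0.05, 518 genes with an unadjusted p under 0.05, and a smallest adjusted p of 0.13. VIM differed by 0.68 in vehicle and 0.03 (SE 0.13) with PMA, an interaction of 0.65 (SE 0.18, adjusted p 1.00 in limma). DLL4 differed by 0.47 in vehicle and -0.18 (SE 0.12) with PMA, an interaction of 0.65 (SE 0.17, adjusted p 1.00 in limma). Neither can be called particular to the vehicle-treated cells.

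HES1, a repressor downstream of Notch, had the smallest interaction p. In vehicle it gave 4.76, 4.42 and 4.78 without and 4.29, 4.28 and 4.50 with doxycycline, a difference of -0.30 (SE 0.18). With PMA the difference was 1.48 (SE 0.18), and the interaction of -1.78 (SE 0.25) had an adjusted p of 0.13 in limma. With a replicate block it was the 1 gene called in this interaction. Its second probe set gave 0.42 (SE 0.23) in vehicle, against the first, so the vehicle direction of HES1 was not settled. With PMA the second gave 1.33, and another dim probe set gave 0.10 in vehicle and 0.11 with PMA.

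Genes whose groups did not overlap were also counted with PMA, where all induced arrays lay above all controls for 955 genes (4.83%) and below them for 1167 (5.9%). In both agents 61 genes were higher without overlap, 6.07% of those in vehicle and 6.39% of those with PMA. Another 73 were lower without overlap in both, 10.6% of those in vehicle and 6.26% of those with PMA, and 53 were apart in opposite directions. Across all 19775 genes the vehicle and PMA differences correlated at 0.22, a description over genes that share arrays and are not independent.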

How the data were processed

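RNA from U937 cultures was labelled from 100 ng with a 3′ in vitro transcription kit and hybridised to arrays with 54675 probe sets, 1 array per labelled replicate. The deposited values are log2 signals from RMA, a tool that the submitters' processing notes name; its version is not given in the sources used here. No rescaling was added. RMA, run by the authors before deposit, commonly draws probe sets toward a common distribution, so a shift of most genes would not be seen. Of the probe sets 62 were controls, 1801 named several genes and 11721 none in the annotation used, and these were left out of the gene tests. For 41037 of the other 41091 the symbol was updated by Entrez number.

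The 12 arrays entered a limma fit of group means (lmFit, eBayes; limma version 3.58.1, R version 4.3.3) that had 8 residual degrees of freedom and 5.60 from the prior. Calls required an adjusted p under 0.05 by Benjamini-Hochberg over all 19775 genes, two-sided. The fit was tested on simulated data with 200 changed genes and a spread drawn without pairs. At a change of 0.5 log2 units it called 8.5% of them without and 0% with the pair block. At a change of 1 it called 87% and 79%. Changes of about 0.5, as for ZXDC, would thus mostly go uncalled. Microarrays give no count depth; 3 arrays a group limit the precision. Whether replicate numbers pair arrays was checked through deviations from group means. These correlated at 0.57, 0.25 and 0.31 within numbers 1 to 3, all above the limit of 0.1, and at -0.43 to 0.24 otherwise. Control 2 with induced 3 (0.24) and control 3 with induced 2 (0.12) also passed that limit. The check thus set number 1 apart but could not settle the pairing of numbers 2 and 3. The numbers were taken as pairs, and a fit with the pair as a block is given beside the unblocked one. No 2 arrays held identical values.

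Members and lists were chosen with earlier results of these data known. Named were ZXDC, ZXDA, ZXDB, CIITA, CCL2, BCL6, ACTB and GAPDH; up to 12 genes in each direction with an unadjusted p under 0.01, no overlap and a mean above the median gene; and at most 2 members per list, those with the smallest p in each direction, some of which are not described. Exceptions named after their values were seen are MT1E, MT1F, MT1G, MT1H, MT1X, MT1M, CSF1, IL1A, C5AR1, CX3CR1, MVK, HMGCS1 and GAPT, and the markers SPI1, LYZ, ELANE, MPO, AZU1 and CD4. Alternatives were replicate blocks, the mean of probe sets, probe sets without _s_ or _x_ suffix, genes above the median level only, cyclic loess, an intensity trend with a robust prior, the 6 vehicle arrays alone, and leaving out arrays or pairs. Upstream sequences came from RefSeq; 3 of 7 metallothionein genes had an entry.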

Additional observations from a re-analysis of the deposited data

How the results depend on the processing

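The count of genes with an adjusted p under 0.05 in limma was 0 under all 18 alternatives tried, and it was also 0 over all 54613 probe sets (1549 at an unadjusted p under 0.05, 2.84%), including the 13522 with no single gene (433, 3.20%). The count at an unadjusted p under 0.05, 510 in the report, was 1090 with the pair as a replicate block, 745 with a replicate block over all arrays, 1485 with the 6 vehicle arrays alone and a block, and 139 of 9887 when dim genes were left out, of which 41 were higher and 98 lower. It ran from 316 to 743 when arrays or pairs were left out. The interaction called 1 gene, HES1, with either replicate block and 0 otherwise; the pairing changed no other call. ZXDC stayed between -0.61 and -0.31 when arrays or pairs were left out, and was -0.41 as the mean of its probe sets.

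The sign turned for a few genes. Without shared-sequence probe sets PATZ1 was 0.012, IDI1 -0.13 and HES1 0.096, and HES1 was 0.074 as the mean of probe sets; SPI1 was -0.026 after cyclic loess. When arrays or pairs were left out, CCL2 ran from -0.64 to 0.59, ACTB from -0.0044 to 0.16, MX1 from -0.0061 to 0.33, MT1F from -0.0033 to 0.32, MT1M from -0.17 to 0.092, HMGCS1 from -0.24 to 0.34, SPI1 from -0.16 to 0.12, LYZ from -0.24 to 0.045, ELANE from -0.047 to 0.15, MPO from -0.20 to 0.0047 and CD4 from -0.0196 to 0.20. Differences also shrank or grew by over 1.5 times without turning sign. Without pair 1 MRPL19 was -0.49, RRM2B -0.44, XIAP -0.31 and CD36 -0.27, and without pair 2 MRPL19 was -0.13, RRM2B -0.068, HYOU1 0.10 and VWF 0.26. As the mean of probe sets CSF1 was 0.086, MAF 0.094, CCR2 -0.13, PDK1 -0.12 and VWF 0.27. List medians moved by more than the SD over pairs in 118 recomputations and by less in 601. The cause of these shifts was not tested. The files give no detection calls, so how far dim genes lie above background was not measured.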
